A study of Mus musculus with 6 samples.

Results

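B cells were a small class in the brain microvessel preparation: 114 of 27852 kept cell barcodes, or 0.409%, over 6 libraries. A barcode was kept with at least 1000 UMIs (unique molecular identifiers, each standing for 1 captured RNA molecule) and at most 15% mitochondrial UMIs. It was taken as a B cell when at least 2 of the 3 genes Cd79a, Cd79b and Ms4a1 were detected, at most 1 of the 4 endothelial genes Cdh5, Flt1, Ly6c1 and Cldn5 was detected, and neither C1qa, a microglial gene, nor Cd3e, a T cell gene, had a UMI. Cd79a and Cd79b encode the signalling chains of the B cell receptor, and Ms4a1 encodes the surface protein CD20. The members were thus chosen by measured values of these genes, and what follows on those genes is description.

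The study compared brain vessels of mice with and without loss of Cldn5, which encodes claudin-5, a tight junction protein of the blood-brain barrier. The 3 control libraries came from C57Bl6 mice with Cldn5 fl/fl and R26 YFP/YFP alleles, and the 3 Cldn5 iECKO libraries from mice that carried Cdh5-creERT2+ in addition. Every mouse received tamoxifen by gavage, 100 µl at 20 mg/ml on each of 3 days, at about 3 months of age. The tamoxifen-activated Cre is driven by the promoter of Cdh5, a gene of endothelial cells. Fragments of microvessels were pulled out of digested brain with magnetic beads that carry an antibody against PECAM1, then dissociated to single cells and profiled with droplet 3′ RNA-seq. No label states how many mice went into a library, so each p-value below measures the spread between libraries.

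B cells are the lymphocytes that make antibodies. Each cell pairs an immunoglobulin heavy chain with a kappa or a lambda light chain, carries the product as a receptor together with CD79A and CD79B, and presents antigen on MHC class II molecules. Mature B cells that have not met antigen carry IgM and IgD and recirculate through blood and lymphoid organs, while progenitors reside in bone marrow and plasma cells secrete antibody. In mice, B cells have been described in blood vessels, in the meninges and in skull bone marrow, and a whole-brain preparation can hold cells from each of these places.

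The 6 libraries held 2714 to 7420 deposited barcodes and 2227 to 6785 kept ones. In endothelial cells, the summed counts held Cldn5 at 4474.2, 3974.2 and 5258.9 CPM (UMIs of a gene as a share of all UMIs, in counts per 1e6) in controls 1, 2 and 3, and at 2528.5, 2200.1 and 2969.3 CPM in iECKO 1, 2 and 3, so each iECKO library was below each control. Control 2 and iECKO 2 stood apart from the other 4 libraries. Xist was at 818.0 and 920.0 CPM of the kept barcodes there and at no more than 0.262 CPM elsewhere. In the B cells of these 2 libraries Gm42418, a gene model that overlaps ribosomal RNA, took 141302.5 and 196995 CPM, against 12336.4 to 58348.9 CPM in the other 4. Of 30490 distinct barcode sequences, 96 occurred in more than 1 library; 1 of them was a B cell barcode, and none was a B cell in both of its libraries.

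The B cells fell into the libraries unevenly. Controls 1, 2 and 3 held 16, 11 and 45 B cells, and iECKO 1, 2 and 3 held 12, 4 and 26. The iECKO 2 library, with 4 B cells, was left out of every genotype comparison within B cells, for which at least 10 cells were required. Control 2, which shared its high Xist and Gm42418, stayed in. These comparisons therefore hold a library of that kind among the controls only. The median B cell held 2735.5 UMIs (range 1124 to 5424), and the library medians were 2590.5, 2206 and 2862 UMIs for controls 1 to 3 and 1847, 2666 and 3133 UMIs for iECKO 1 to 3. In all, 317234 UMIs were read from B cells. A gene with no UMI in any of them could still be present at up to 9.46 CPM, the level of 3 counts, and 0 of 114 cells allows a share of up to 2.63% of cells with a UMI. Such limits, and the 95% Clopper-Pearson intervals below, cover counting error only.

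The boundary of the class was mostly a boundary against barcodes that also carried endothelial RNA. Of 164 kept barcodes with at least 2 B cell markers, 50 (30.5%) were left out, 46 of them for endothelial genes, 6 for C1qa and 1 for Cd3e, with some failing on more than 1 count. Of the 46, 29 held all 4 endothelial genes, 5 held 3 and 12 held exactly 2, which is just outside the rule. Those left out had a median of 7384.5 UMIs, against 2735.5 in the B cells kept. Among the B cells, 84 had none of the 4 endothelial genes and 30 had 1, which is just inside, and 97 had all 3 B cell markers. A further 6 barcodes had only 1 marker and 6 had under 1000 UMIs while meeting the rest of the rule. Inside the UMI limit, 6 B cells had under 1500 UMIs.

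The other B lineage genes matched the name. Of 11 genes set aside as a check of identity (among them Ighm, Ighd, Igkc, Pax5, Ebf1, Fcmr and Bank1), 113 of 114 cells held at least 5, the median cell held 8 and the lowest held 4. Genes of other classes were uneven. Cd3e and C1qa are 0 by the rule, and so were Cd3g, Trac, Trbc2, Nkg7 and Ncr1, the microglial gene Tmem119, the plasmacytoid dendritic cell gene Siglech and the neutrophil genes S100a8 and S100a9. In the neutrophil and monocyte list, at 236.0 CPM in B cells and 31.3 CPM in the other barcodes, 6 of 8 genes were at 0, while Plac8, a gene of several blood cell types, was detected in 45 cells (39.5%). In the microglia and macrophage list 5 of 11 genes were at 0, and the other 6 were found in 31 cells (27.2%), with library sums of 0 to 174.0 CPM. All 12 endothelial genes were detected and 91 cells (79.8%) held at least 1 of them, at 659.0 CPM against 30633.2 CPM in the other barcodes and with library sums of 453.0 to 1167.2 CPM. The 14 genes of the T and NK cell list had 5 UMIs in all B cells together, with 11 genes at 0 and a library range of 0 to 34.3 CPM. Erythrocyte genes were found in 34 cells (29.8%), at 154.0 CPM against 10258.1 CPM in the other barcodes. Glia and neuron genes were found in 23 cells (20.2%), at 104.0 CPM against 3666.2 CPM. Both lists had higher sums in control 2 than in the other controls, at 378.0 and 481.0 CPM. The 8 mural cell genes, of pericytes and smooth muscle, summed to 5321.2 CPM in control 2 and to at most 217.0 CPM in each other library; a single B cell barcode of control 2 held 153 of these UMIs. Only 2 of the 114 barcodes held at least 2 mural genes. Results between genotypes were also computed without them.

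To show the regulatory context of the genes that lead the description below, promoter windows from RefSeq (build GRCm38.p6; 250 bases before to 50 bases after each start) were searched for 2 short motifs known from B cells and antigen presentation. The Y box, searched as CTGATTGG on both strands, is bound by NF-Y and is part of the conserved MHC class II promoter. The octamer, searched as ATGCAAAT on both strands, is bound by the POU factors that Pou2f1 and Pou2f2 encode and is known from immunoglobulin promoters. The 120 bases before the start are shown for 3 MHC class II genes and for Vpreb3, the member of the B cell profile that carried an octamer. The capitals mark the motif, as read in the gene's own direction.
H2-Aa: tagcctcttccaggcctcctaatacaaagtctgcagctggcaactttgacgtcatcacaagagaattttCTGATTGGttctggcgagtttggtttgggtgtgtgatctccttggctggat
H2-Eb1: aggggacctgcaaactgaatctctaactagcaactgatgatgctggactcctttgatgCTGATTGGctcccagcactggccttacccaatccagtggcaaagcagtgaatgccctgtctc
H2-Oa: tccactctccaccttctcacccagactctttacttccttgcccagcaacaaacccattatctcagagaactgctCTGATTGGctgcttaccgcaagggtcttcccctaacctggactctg
Vpreb3: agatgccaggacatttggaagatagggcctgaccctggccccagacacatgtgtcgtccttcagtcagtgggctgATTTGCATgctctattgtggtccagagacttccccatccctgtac

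The H2-Aa stretch lies at chr17:34287824-34287943 on the minus strand, with the Y box beginning 51 bases before the start. On the plus strand, H2-Eb1 (chr17:34305747-34305866) and H2-Oa (chr17:34092259-34092378) carry it 62 and 46 bases before theirs. The Vpreb3 stretch (chr10:75948180-75948299, plus strand) carries the octamer on the opposite strand, 45 bases before the start. Of the 10 genes in the MHC class II list, 7 were matched, by 8 windows, and 3 windows (37.5%) held the Y box, against 1346 of all 32851 windows (4.1%). For the 40 genes that lead the B cell profile, 20 were matched, by 25 windows, of which 1 held the octamer (4.0%), against 570 of all windows (1.74%). These are matches of letters and do not show binding.

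The genes of the rule were abundant in every library. Cd79a (chromosome 7, 24897381 to 24902197, GRCm38) was at 3817.1, 2059.8 and 3276.0 CPM in controls 1, 2 and 3 and at 3427.2, 1964.1 and 3906.7 CPM in iECKO 1, 2 and 3. Its lowest values were those of control 2 and iECKO 2; after TMM scaling for composition, control 2 was still the lowest of the 5 libraries with at least 10 B cells, at 3660 CPM against 4500 to 5420 CPM. Cd79b (chromosome 11, 106311341 to 106314762) ranged from 1178.4 to 2645.3 CPM over the 6 libraries and was detected in 112 of the 114 cells. Ms4a1 (chromosome 19, 11249675 to 11266241) ranged from 393.0 to 1605.1 CPM and was detected in 99 cells.

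When the 2657 genes at 50 CPM or more in B cells were ordered by the ratio of their pooled B cell level to that in all other kept barcodes, after 5 CPM were added to both, 194 genes were at least 10 times higher in B cells. The order was led by Igkc, Ly6d, Iglc2, Cd79a, Cd79b, Ighm, Iglc1, Cd74, Ms4a1, Iglc3, H2-Aa, Ighd, H2-Eb1, H2-Ab1 and Ltb. Ly6d, a surface protein of committed B lineage cells that plasmacytoid dendritic cells also carry, was at 2786.6 CPM in B cells and 1.41 CPM in the other barcodes, and 106 B cells held it. Ltb, which encodes lymphotoxin beta, was at 927.0 against 2.5 CPM, but at 719.0 CPM in T and NK cells. Of the 40 leading genes, 27 were in the gene lists used here and 3 were predicted genes. Since the cells were picked by their genes, this order has no test.

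The B cell receptor genes described cells with IgM and IgD. Ighm, the constant region of the IgM heavy chain (chromosome 12, 113418558 to 113422730), was detected in 112 of 114 cells, at 2784.8, 2059.8 and 3070.8 CPM in the controls and 2212.5, 1374.8 and 3968.0 CPM in the iECKO libraries. Ighd, that of IgD (chromosome 12, 113406604 to 113416324), was detected in 87 cells, at 480.0, 618.0 and 912.0 CPM in the controls and 390.0, 1080.2 and 1028.7 CPM in the iECKO libraries. The genotypes overlapped for both genes. Ighm and Ighd occurred together in 86 cells, 26 had Ighm alone, 1 had Ighd alone and 1 had neither.

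To compare detection with other classes, each cell was reduced in expectation to 1000 UMIs. The other classes were taken without any barcode that held a B cell marker, so their 0 values for Cd79a, Cd79b and Ms4a1 are set by the rule and their other B cell genes are lowered by it. With such barcodes kept, endothelial cells held Ighm at 1.84 in place of 0.312 CPM and Igkc at 4.73 in place of 1.08 CPM. At that depth 88.3% of B cells had an Ighm UMI and 51.4% an Ighd UMI, against 0.0407% and 0.00732% of endothelial cells, whose library medians before thinning were 3795 to 6086 UMIs. Fcmr, the receptor for IgM, was found in 47.0% of B cells at that depth and in 0.00541% of endothelial cells. Among the genes of receptor signalling, Bank1, an adaptor, was found in 41.2% of B cells, Fcrla, an intracellular Fc receptor-like protein, in 32.4% and Syk, the kinase recruited by CD79A and CD79B, in 28.0%.

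**Figure D1:**
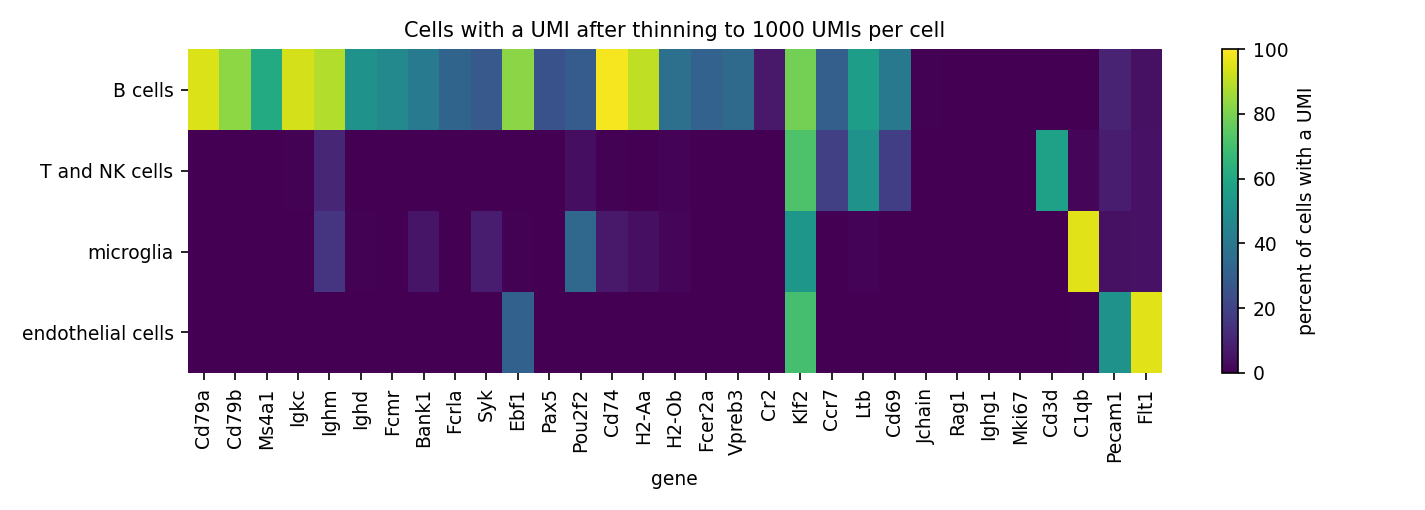
Percent of cells with at least 1 UMI of each gene (colour scale, 0 to 100%) after thinning to 1000 UMIs per cell, for B cells, T and NK cells, microglia and endothelial cells pooled over the 6 libraries. Ighm was found in 88.3% of B cells and 14.9% of microglia, and Ebf1 in 82.6% of B cells and 31.0% of endothelial cells; genes of the marker rules (Cd79a, Cd79b, Ms4a1, Flt1 and others) separate the classes by construction.

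Transcription factors of the lineage were present at different breadth. Pax5, which maintains B cell identity, was found in 25.2% of B cells at 1000 UMIs and in no T and NK cell or microglial cell, with 0.0093% of endothelial cells. Ebf1, which acts with Pax5 early in the lineage, was found in 82.6% of B cells but also in 31.0% of endothelial cells, at 2212.9 and 392.0 CPM. Mef2c was found in 61.3% of B cells and 65.8% of microglia. Pou2f2, which encodes a B cell octamer-binding factor, was found in 29.1% of B cells and 33.8% of microglia, so it did not separate these classes here.

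The genes of MHC class II presentation were high in the B cells, with 22655.2 CPM summed over 10 genes, against 114.0 CPM in the other barcodes. The library sums were 21582.0, 15173.9 and 24323.1 CPM in the controls and 24857.9, 17578.3 and 23195.4 CPM in the iECKO libraries, and the groups overlapped. Cd74, the invariant chain that escorts class II molecules, was detected in 113 of the 114 cells, at 11162.1 CPM. H2-Aa and H2-Ab1, which encode the chains of I-A, were detected in 108 cells each, and H2-Eb1, a chain of I-E, in 107. The peptide-exchange genes H2-DMa and H2-DMb2 were detected in 76 and 69 cells. H2-Ob, a chain of the H2-O molecule that restrains peptide exchange and is typical of B cells, was detected in 75 cells, at 495.0 CPM against 16.6 CPM in microglia and 0.885 CPM in endothelial cells. H2-Oa, the other chain of H2-O, was detected in 48 cells, at 236.0 CPM.

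Genes of recirculating follicular B cells were detected in much of the class. Klf2, a regulator of lymphocyte trafficking, was found in 79.2% of B cells at 1000 UMIs, though also in 70.7% of endothelial cells. Before thinning, Cd55, a complement regulator, was detected in 76 cells, Ccr7, the chemokine receptor for lymphoid tissue entry, in 66, and Fcer2a, which encodes the IgE receptor CD23, in 65. S1pr1, the receptor used to leave tissue, was detected in 46. Of the cells with Ighd, 66.7% also held Fcer2a, against 25.9% of those without (median 2762 and 2487 UMIs). Cr2, the complement receptor CD21, whose high level is typical of marginal zone B cells, was detected in 18 cells, and Cd9 in 3.

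Most genes of other B cell stages were sparse. Among the exceptions were Vpreb3, in 63 cells, and Cd24a, in 50, both of the progenitor and immature list. No B cell held a UMI of Rag1, Rag2, Dntt or Igll1, which belong to progenitors rearranging their receptors, and 1 cell held Vpreb1. Cd5, a marker of most B-1 cells, was at 0, and so were the proliferation genes Mki67 and Top2a. No UMI of Ighg1, Ighg2b, Ighg2c, Ighg3 or Ighe was found, and Igha had 1 UMI in each of 3 cells, which all held Ighm, so that no cell met the definition of a switched cell (at least 2 such UMIs and no Ighm). Jchain, which links secreted IgM and IgA, had 1 UMI in all, while Mzb1, a chaperone of antibody-secreting and marginal zone B cells, was detected in 56 cells. Of the 8 plasma cell genes, at least 3 were found together in 2 cells.

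The light chain genes split the B cells into 95 with more kappa UMIs (Igkc, chromosome 6, 70726435 to 70726966) and 19 with more lambda UMIs (Iglc1, Iglc2 and Iglc3, chromosome 16), a lambda share of 16.7% (interval 10.3 to 24.8%). The split was by excess rather than by presence. Both chains were detected in 106 cells, kappa alone in 3, lambda alone in 5 and neither in none. The median kappa cell held 25 Igkc UMIs beside 6 lambda UMIs, and the median lambda cell held 30 lambda UMIs beside 4 Igkc UMIs. When a chain had to have at least 3 UMIs and 5 times as many as the other, 35 cells were called kappa, 11 lambda and 68 neither.

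Detection of lambda genes within kappa cells was not equal over the 3 genes. The 95 kappa cells held 140 UMIs of Iglc1, 411 of Iglc2 and 235 of Iglc3, and the 19 lambda cells held 356, 323 and 84. Iglc1 was thus detected in 44 of the 95 kappa cells, and Iglc2 and Iglc3 in 81 and 79. How reads that fit more than 1 lambda gene were counted is not stated, so each value is uncertain on its own. Endothelial cells held 1.08 CPM of Igkc and 0.267 CPM of Iglc2, against 8476.4 and 2313.7 CPM in B cells.

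**Figure D2:**
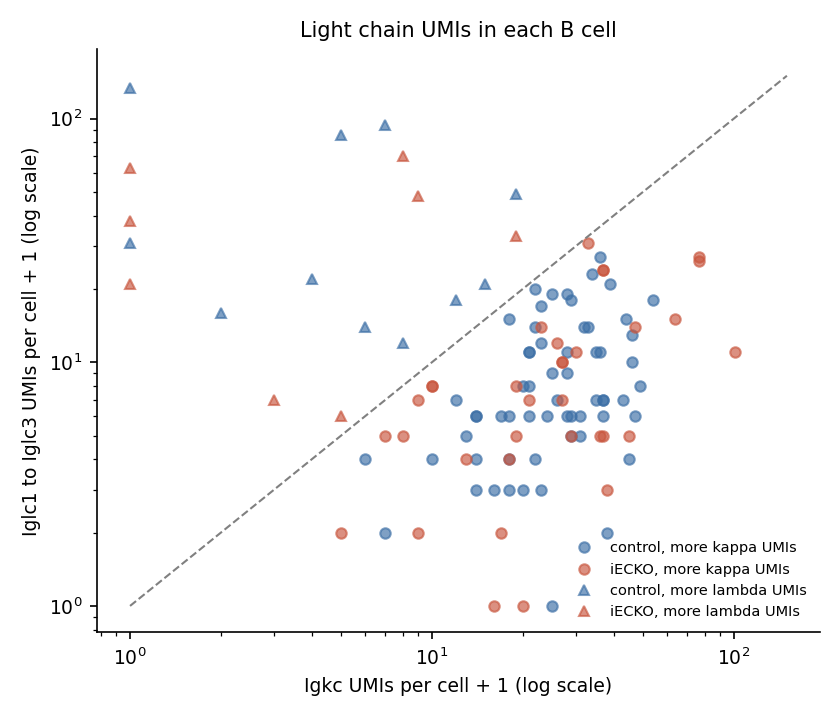
Each point is 1 of the 114 B cells, placed by its Igkc UMIs plus 1 (horizontal, log scale) and its summed Iglc1, Iglc2 and Iglc3 UMIs plus 1 (vertical, log scale), with colour for genotype and shape for the chain with more UMIs; the dashed line marks equal values. The 95 kappa cells lie below the line and the 19 lambda cells above it, and most kappa cells hold some lambda UMIs.

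Vpreb3, which encodes a protein related to the surrogate light chain, was the leading gene of the progenitor and immature list, yet Rag1, Rag2, Dntt and Igll1 were at 0. It was detected in 9 of 16, 7 of 11 and 20 of 45 B cells of controls 1, 2 and 3 and in 4 of 12, 4 of 4 and 19 of 26 of iECKO 1, 2 and 3. In all, 63 cells held it and 51 did not, at medians of 2718 and 2790 UMIs. This gene was singled out after its values had been seen, so the comparison of the 2 sets of cells is a description without a test.

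The cells with Vpreb3 held Ighd less often and Cd24a more often. Ighd was detected in 65.1% of cells with Vpreb3 and 90.2% of those without. It was the lower in the cells with Vpreb3 in each of the 5 libraries with at least 10 B cells (for example 50.0% against 96.0% in control 3 and 78.9% against 100.0% in iECKO 3). Some of these sets were small, with 2 of 4 against 5 of 8 cells in iECKO 1 and 4 of 7 against 4 of 4 cells in control 2. Cd24a, which encodes the heat-stable antigen that declines as B cells mature, was detected in 57.1% against 27.5%, and was the higher in the cells with Vpreb3 in the same 5 libraries (11 of 20 against 10 of 25 cells in control 3, and 12 of 19 against 1 of 7 cells in iECKO 3). Ighm was at 3435.5 CPM in the cells with Vpreb3 and 2559.3 CPM in the others, with the opposite order in iECKO 1. Fcer2a was detected in 52.4% and 62.7%, and its order was not the same in every library.

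**Figure D3:**
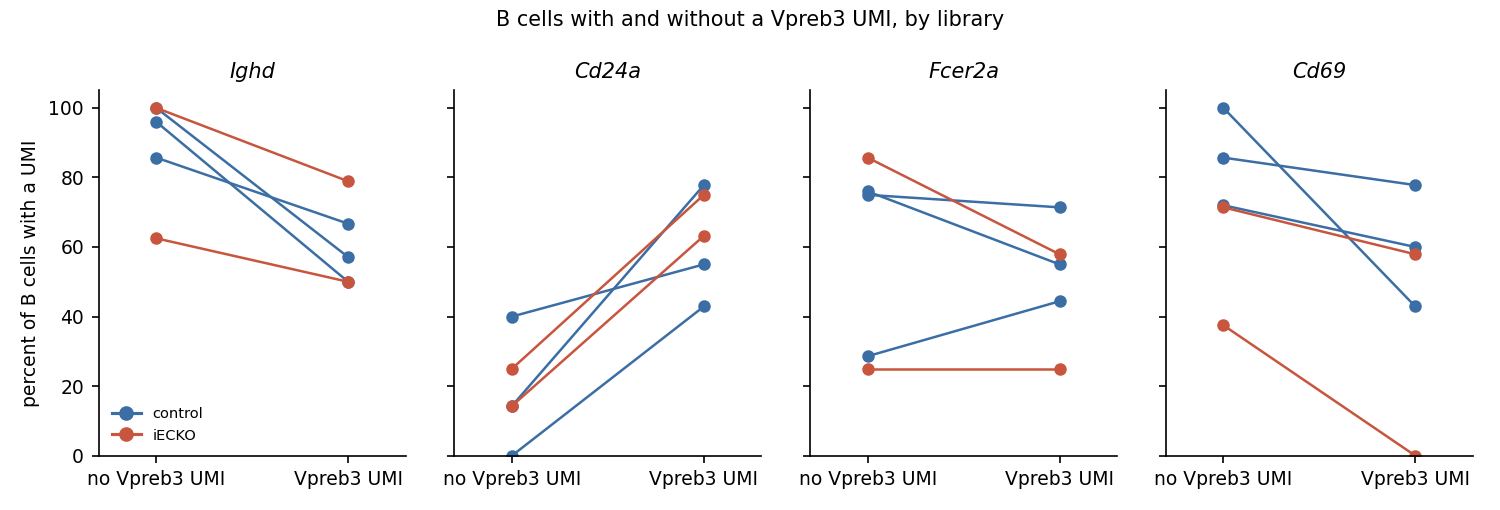
Percent of B cells with a UMI of Ighd, Cd24a, Fcer2a or Cd69 (vertical axis, 0 to 100%), among cells without and with a Vpreb3 UMI, with 1 line per library for the 5 libraries with at least 10 B cells. The Ighd lines fall and the Cd24a lines rise in all 5 libraries, from pooled values of 90.2% to 65.1% and of 27.5% to 57.1%. In control 2 and iECKO 1, an end of each line rests on 4 cells.

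Genes of recent activation were mixed. Cd69, an early activation marker that also retains lymphocytes in tissue, was detected in 73 of the 114 cells, and at 1000 UMIs in 40.3% of B cells, 18.4% of T and NK cells and 0.0161% of endothelial cells. The immediate-early genes Junb, Fos and Jun were found at that depth in 60.8%, 40.5% and 37.0% of B cells and in 39.5%, 31.7% and 53.5% of endothelial cells. Such genes can also respond to tissue digestion, which was not tested here. Cd69 and Fos occurred together in 43 cells, that is in 58.9% of the cells with Cd69, and Fos was found in 48.8% of those without Cd69. Of interferon-induced genes, Ifi27l2a was detected in 62 cells and Ifi203 in 59. Summed over the 13 genes of that list, B cells held 1699.1 CPM against 4247.9 CPM in the other barcodes. Only 4 of the 13 genes were higher in B cells.

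Pecam1, the target of the capture beads, was detected in 30 of the 114 B cells. Its level was 72.0, 137.0 and 114.0 CPM in controls 1 to 3 and 86.8, 98.2 and 98.0 CPM in iECKO 1 to 3, from 1 to 15 UMIs each. Pooled, the B cells held 104.0 CPM, which was 14.1% of the endothelial level of 737.0 CPM. For the other 7 endothelial genes that the rule did not use, the B cell level was between 0.429% (Ctla2a) and 3.5% (Esam) of the endothelial level. For the 4 genes limited by the rule it was between 0.476% (Cdh5) and 1.05% (Cldn5). T and NK cells had 9.4% and microglia 6.17% of the endothelial Pecam1 level.

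The share of B cells among kept barcodes did not separate the genotypes. In controls 1, 2 and 3 it was 0.298% (interval 0.171 to 0.484%), 0.19% (0.0949 to 0.34%) and 1.15% (0.843 to 1.54%). In iECKO 1, 2 and 3 it was 0.177% (0.0914 to 0.309%), 0.18% (0.049 to 0.459%) and 0.686% (0.448 to 1.0%). The highest library of each genotype was number 3, and the other 4 libraries lay close together. In iECKO this order rested on cells with 5 to 15% mitochondrial UMIs. At a limit of 5%, iECKO 3 held 4 B cells and a share of 0.172%, below the 0.287% of iECKO 2, while control 3 held 38 and 1.1%. The means were 0.548% ± 0.528 (SD, n = 3) in controls and 0.347% ± 0.293 (SD, n = 3) in iECKO, and the difference of -0.2 percentage points was smaller than the spread (two-sided exact permutation test, p = 0.5, smallest possible 0.1; each of the 5 single-value tests of B cells had p = 1.0 after adjustment over the 5). Without control 3 the difference was 0.103 percentage points in the other direction (exact permutation p = 1.0).

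Within pairs of libraries with the same number, the iECKO share was the lower in 3 of 3. The differences were -0.121, -0.0105 and -0.469 percentage points, or 0.593, 0.945 and 0.594 times the control value, and the exact sign-flip test gave p = 0.25, the smallest it can give with 3 pairs. Set against microglia, there were 11.9, 9.91 and 48.4 B cells per 100 microglia in controls 1 to 3 and 7.5, 11.8 and 31.7 in iECKO 1 to 3. Pair 2 turned round on this scale. The share of B-marker barcodes left out by the rule came to 15.8%, 35.3% and 22.4% for the controls and to 55.6%, 50.0% and 25.7% for iECKO. With no limit on endothelial genes the difference in B cell shares was -0.146 percentage points (exact permutation p = 0.9). Since Cldn5 itself is in the rule, the shares were also computed without counting it, with a difference of -0.209 percentage points (exact permutation p = 0.5).

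**Figure D4:**
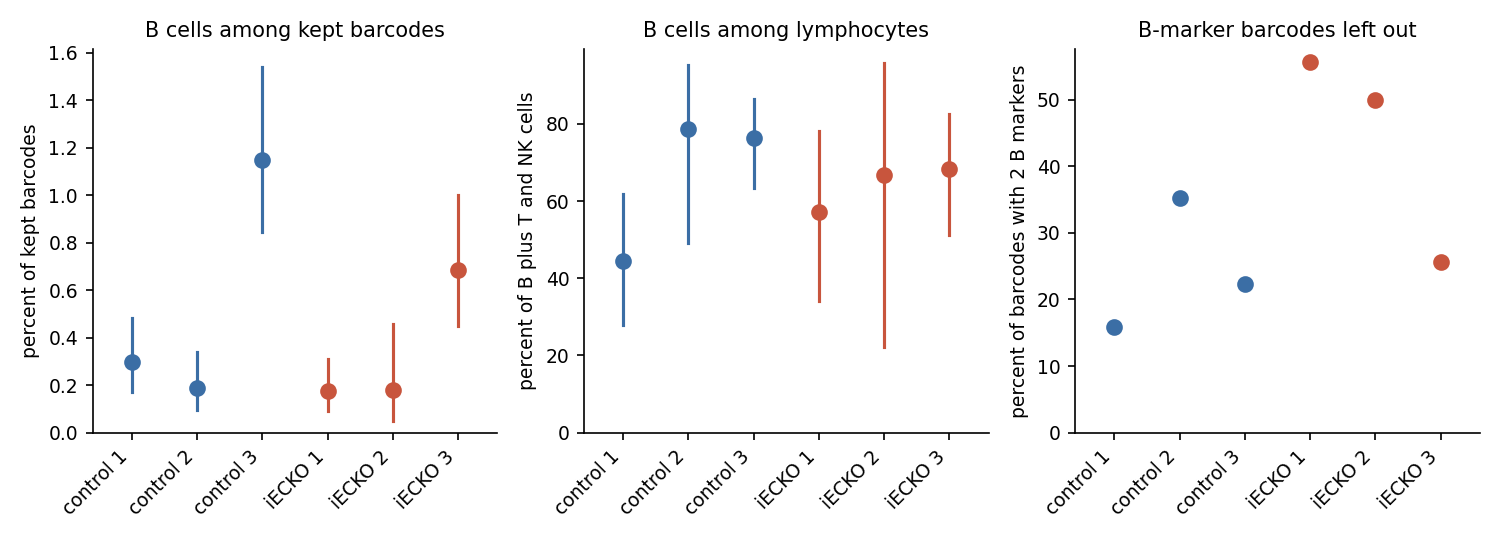
Left, B cells as a percent of kept barcodes; middle, B cells as a percent of B cells plus T and NK cells; right, percent of barcodes with at least 2 B cell markers that the rule left out. Points are the 6 libraries (blue control, red iECKO), with 95% Clopper-Pearson intervals in the left and middle panels; libraries number 3 have the highest B cell share in both genotypes (1.15% and 0.686%), which in iECKO did not hold at a limit of 5% mitochondrial UMIs (0.172%).

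Among lymphocytes, B cells outnumbered T and NK cells in 5 of 6 libraries, but in 3 of 6 at a limit of 5% mitochondrial UMIs. T and NK cells, taken with at least 2 of 8 marker genes and the same endothelial limit, numbered 20, 3 and 14 in controls 1 to 3 and 9, 2 and 12 in iECKO 1 to 3. B cells made up 44.4%, 78.6% and 76.3% of the lymphocytes in the controls, and 57.1% and 68.4% in iECKO 1 and 3. The iECKO 2 library had 66.7% of only 6 lymphocytes and was left out of the test. At the 5% limit B cells were 36.7% and 74.5% in controls 1 and 3 and 36.4% and 33.3% in iECKO 1 and 3, so that iECKO 3 fell below an equal split; the difference was -20.7 percentage points (exact permutation p = 0.333). The means at the 15% limit were 66.4% ± 19.1 (SD, n = 3) and 62.8% ± 7.97 (SD, n = 2), and they differed by -3.65 percentage points, less than the spread (two-sided exact permutation test, p = 1.0, smallest possible 0.2).

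B cells had fewer UMIs than T and NK cells in the 3 libraries with at least 10 of each. The difference of the medians was -952 UMIs in control 1, -663 in control 3 and -1339 in iECKO 3, a mean of -985. The two-sided exact sign-flip test over the 3 libraries gave p = 0.25, the smallest possible, and p = 1.0 after adjustment. In median mitochondrial share the B cells had 4.49%, 3.83% and 4.22% in controls 1 to 3 and 5.86%, 4.17% and 6.11% in iECKO 1 to 3, and endothelial cells had 3.59%, 3.54% and 3.24% against 3.98%, 4.2% and 4.5%.

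The make-up of the B cells by IgD and by light chain overlapped between genotypes. At 1000 UMIs an Ighd UMI was found in 38.5%, 47.1% and 54.1% of B cells of the controls and in 40.2% and 58.6% of those of iECKO 1 and 3. The means, 46.6% ± 7.82 (SD, n = 3) and 49.4% ± 13.1 (SD, n = 2), differed by 2.86 percentage points (two-sided exact permutation test, p = 0.8, smallest possible 0.2). Lambda cells made up 12.5%, 27.3% and 13.3% in the controls and 8.33% and 19.2% in iECKO 1 and 3. The means of 17.7% ± 8.3 (SD, n = 3) and 13.8% ± 7.71 (SD, n = 2) differed by -3.92 percentage points (exact permutation test, p = 0.8). Both differences were within the spread and changed sign when single libraries were left out. Without control 2, which has no iECKO partner here, the IgD and lambda differences were 3.13 and 0.865 percentage points.

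No gene was called changed between genotypes in B cells. Counts were summed over the B cells of each of the 5 libraries with at least 10, and 520 of 10507 genes with a count were abundant enough to test, with levels given here as TMM-scaled CPM (scaled to make libraries of different composition comparable). edgeR's quasi-likelihood test called 0 (0% of those tested), 7 genes (1.35%) had an unadjusted p under 0.05, and DESeq2 also called 0, with 12 at an unadjusted p under 0.05. For 94 genes (18.1%) the 2 iECKO values lay outside the range of the 3 controls on 1 side. Differences were positive in 249 and negative in 271 genes, with a median log2 difference of -0.01. Simulated data gave all genes 1 shared spread (common dispersion 0.059) and changed 200 genes at once. There, 45% of genes changed by 2-fold, 87.5% of those changed by 4-fold and 97.5% of those changed by 8-fold were called. Real genes differ in spread, and recovery with fewer genes changed was not tested, so these shares may be too high for the data.

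The genes with the smallest p on the negative side, apart from 1 predicted gene, did not pass, and all had an edgeR adjusted p of 1. Fosb, an immediate-early transcription factor, was at 618, 855 and 303 CPM in the controls and 125 and 187 CPM in iECKO 1 and 3, a log2 difference of -1.56 ± 0.54 (SE), from 2 and 11 UMIs in the iECKO libraries. Macf1, a linker of actin and microtubules, was at 618, 671 and 647 CPM against 376 and 255 CPM (-1.15 ± 0.41). Itga4, the alpha 4 integrin with which lymphocytes bind VCAM1 on endothelium, was at 553, 427 and 324 CPM against 62.7 and 238 CPM (-1.1 ± 0.54). These 3 genes did not overlap between groups, but neither did 18.1% of all genes tested, and the 3 were picked by their small p. Each rests on few UMIs in iECKO 1, from 1 for Itga4 to 6 for Macf1. Ifi203, an interferon-induced gene, and Rplp1, a ribosomal protein gene, had log2 differences of -0.79 ± 0.39 and -0.38 ± 0.19.

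On the positive side the genes were likewise not called (edgeR adjusted p of 1). Jund, an AP-1 factor, was at 2440, 2080 and 2470 CPM in the controls and 3260 and 4210 CPM in iECKO 1 and 3, a log2 difference of 0.69 ± 0.23. Iglc3 was at 1240, 732 and 1230 CPM against 1880 and 1970 CPM (0.81 ± 0.31), with the uncertainty of reads shared between lambda genes. Iglc1 and Iglc2 had differences of -0.29 and -0.19. Cfl1, the actin-severing protein cofilin, was at 813, 855 and 835 CPM against 1880 and 1100 CPM (0.77 ± 0.34). Gimap1, a GTPase of lymphocytes, and the histone gene H3f3a had log2 differences of 0.81 ± 0.39 and 0.39 ± 0.19.

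**Figure D5:**
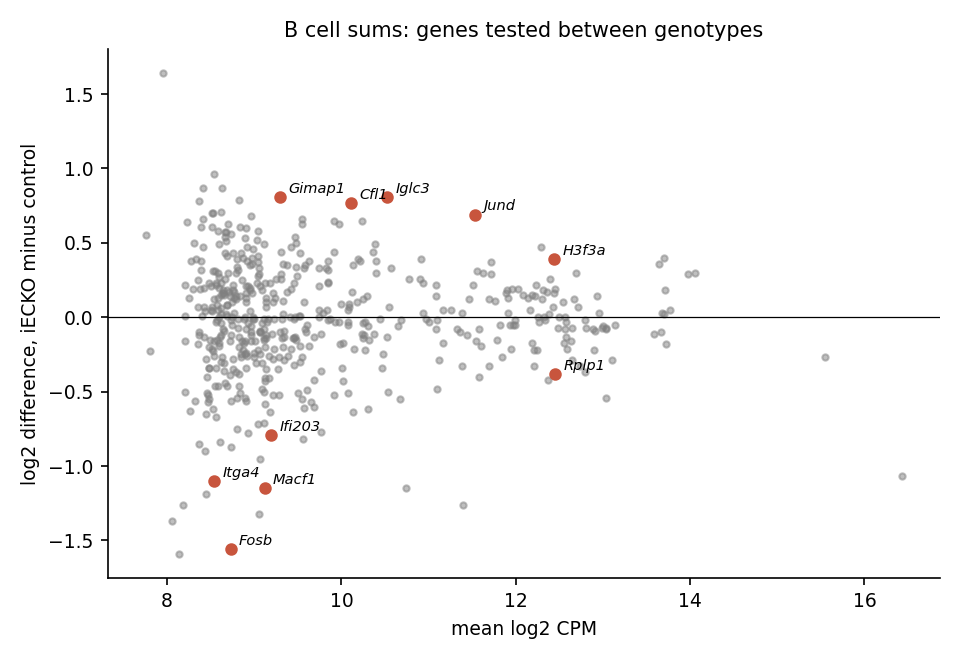
Log2 difference between iECKO and control B cells (vertical) against mean log2 CPM (horizontal) for the 520 genes tested, with 1 point per gene and the 10 genes of smallest p, 5 in each direction, named in red and predicted genes not named. No gene passed an adjusted p of 0.05, and Fosb lies lowest among the named genes at -1.56.

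The gene lists gave no called member in either direction. In the MHC class II list, 8 genes were tested, 5 with a positive and 3 with a negative difference and a median of 0.1, against -0.01 over all genes tested; Cd74 was at 0.29 ± 0.19 and H2-Aa at 0.15 ± 0.21. In the follicular list, 5 of 7 tested genes were negative, with a median of -0.21. In the trafficking list, 5 of 6 were negative, with a median of -0.37, Ccr7 at -0.64 ± 0.41 and Cxcr4 at 0.43 ± 0.43. Of 10 receptor and co-receptor genes tested, 7 were positive, with a median of 0.09, and of 8 activation genes 5 were positive, with a median of 0.19.

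Some members of these lists were low in iECKO 1 and others were not. In that library a Ccr7 UMI was detected in 3 of 12 cells (interval 5.49 to 57.2%), Cd55 in 2 and Cd69 in 3. The other libraries with at least 10 B cells had Ccr7 in at least 50.0%, Cd55 in 54.5 to 80.8% and Cd69 in 61.5 to 81.2% of their B cells. The iECKO 1 cells were also the shallowest, with a median of 1847 UMIs. At 1000 UMIs per cell they remained the lowest of these 5 libraries, with Ccr7 in 17.1%, Cd55 in 9.91% and Cd69 in 23.3%. For these genes iECKO 3 had 26.4%, 39.3% and 29.8%, and the controls 30.0 to 42.6%, 33.6 to 47.5% and 30.7 to 49.9%. At the same depth iECKO 1 was the highest of these 5 libraries for Cxcr4 (34.5%), Fos (52.6%) and Egr1 (22.5%). Whether the list medians rest on this library was not tested.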

How the data were processed

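The deposited files hold raw UMI counts per gene and barcode for each of 6 libraries. Per the file headers they come from Cell Ranger 6.1.1, and the build was mm10 per the submitters' processing notes, which also name Seurat; no normalization had been applied by the authors. Deposited barcodes had at least 500 UMIs, and no doublet caller was run here beyond the limits on genes of other classes. Gene coordinates come from the GENCODE annotation of GRCm38.

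Classes were set by marker genes, without clustering. B cells followed the rule in the report. T and NK cells needed at least 2 of 8 genes (Cd3e, Cd3d, Cd3g, Trac, Trbc2, Nkg7, Klrd1, Ncr1), microglia at least 2 of 5 (C1qa, P2ry12, Cx3cr1, Csf1r, Tmem119) and endothelial cells at least 3 of the 4 endothelial genes, giving 60, 615 and 23228 barcodes. These 3 classes left out every barcode with a B cell marker; T and NK cells and microglia could hold at most 1 endothelial gene, and C1qa or Cd3e of another class was not allowed. Levels with B marker barcodes kept were computed as an alternative chosen after seeing the data. The members and the 26 gene lists were chosen with earlier results of these data known. Levels are CPM of the summed raw counts, except in the genotype comparison of genes, where they carry TMM factors. Detection at 1000 UMIs is the expected share of cells with a UMI when each cell is thinned to that number without replacement; every B cell had at least 1000 UMIs.

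Libraries were compared with two-sided exact permutation tests, adjusted over 5 tests (Benjamini-Hochberg). Genes were compared with edgeR 4.0.16 (R 4.3.3; robust quasi-likelihood, TMM, filterByExpr; Benjamini-Hochberg adjusted p under 0.05, unpaired), with DESeq2 1.42.0 as an alternative. Python 3.11.15, numpy 2.4.6, scipy 1.17.1, pandas 2.3.3 and matplotlib 3.10.9 were used. The gene test was tested on simulated data and made 1 call among 466 genes when none was changed.

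Genes were named by a rule: those of the class rule; list members with a UMI in at least 25% of B cells, at most 6 per list, and members at or near 0 where a list was absent; the 15 genes leading by ratio at 50 CPM or more; and, with none past the threshold between genotypes, the 5 smallest p in each direction. Predicted genes were counted only. Cr2, Cd9, H2-DMb2, H2-Oa, Blnk, Pecam1, Ctla2a, Esam, Vwf, Apod, the Vpreb3 comparison and Gm42418 were added after their values were seen.

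The replicate numbers are shared by both groups. In the endothelial sums, deviations from the group means correlated between same-number libraries with r of 0.339, 0.282 and 0.316 over 13869 genes, which are not independent, while the pairs of different numbers were negative. Deviations within a group cancel out by construction, so positive same-number values make the others negative on average, and the negative values add no support. The numbers were taken to pair the libraries by the positive values alone, from the data and not from a label.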

Additional observations from a re-analysis of the deposited data

How the results depend on the processing

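With 2 or 3 libraries a group and 11 to 45 B cells a library, the numbers of libraries and of cells limit every value between genotypes. The smallest p that the exact single-value tests could give in the main setting was 0.1, 0.2 or 0.25. With so few libraries none of them could pass 0.05, also under the alternatives, so they cannot decide between a difference and none. No gene was called with 2000 UMIs per barcode, all 3 markers, 0 endothelial genes, Cldn5 not counted, RLE factors, no filter on low counts, immunoglobulin genes left out, DESeq2 or any library left out (2000 UMIs, all 3 markers and leaving out iECKO 1 or 3 left 1 iECKO library, assumed to vary like the controls). Only without a limit on endothelial genes, an alternative added after seeing the data, were 3 genes called higher in iECKO: Vwf (2.12), Ctla2a (2.02) and Apod (2.48, log2), with 0 lower; there H3f3a was at -0.12 and Macf1 at 0.09. Leaving out the barcodes with 2 mural genes, also added after seeing the data, gave 0 called genes and a share difference of -0.203 percentage points.

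The difference in B cells among lymphocytes changed sign to 8.59 with 2000 UMIs, 14.2 with 0 endothelial genes and 6.22 with no limit on them, was -20.7 with 5% mitochondrial UMIs, and ranged from -14.6 to 2.42 percentage points with 1 library left out. That in the lambda share changed sign to 5.88 with 2000 UMIs, 6.35 with all 3 markers and 4.64 with 0 endothelial genes, was -1.11 without the barcodes with 2 mural genes and -2.57 with the stricter chain call, and ranged from -9.37 to 1.53 with 1 library left out. That in the IgD share was -2.95 without thinning, 13.3 with all 3 markers, 10.5 with 0 endothelial genes, 9.72 with 2000 UMIs, 5.14 with Cldn5 not counted and 0.507 with no limit on endothelial genes, and ranged from -6.37 to 12.1 with 1 library left out. The share of kept barcodes differed by -0.312 with 5% mitochondrial UMIs and ranged from -0.379 to 0.103, the last without control 3. The causes were not tested.

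With the replicate block, 0 genes were called in either direction (23 at an unadjusted p under 0.05). The same-number differences averaged -0.2 for the share of kept barcodes, 2.42 for the lymphocyte share, 3.13 for the IgD share and 0.865 for the lambda share, the second and the last with changed sign over 2 pairs; no call changed. A 5% mitochondrial limit left no iECKO library with 10 B cells, and a minimum of 20 B cells left 1 library a group, so within-B-cell comparisons were not run under these.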

Other observations

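Ighm was found outside the B cells in 2 immune classes. Microglia held 147, 175 and 228 CPM in controls 1, 2 and 3 and 137, 171 and 181 CPM in iECKO 1, 2 and 3, from 17 to 108 UMIs a library. T and NK cells held 134 CPM pooled, with none in control 2 and iECKO 2, where they numbered 3 and 2. At 1000 UMIs a cell, 14.9% of microglia and 10.9% of T and NK cells had an Ighm UMI, against 0.0407% of endothelial cells. Igkc, which was the more abundant of the pair in B cells (8476.4 CPM, against 3054.5 CPM for Ighm), was at 1.31 CPM in microglia and 4.33 CPM in T and NK cells. These classes left out barcodes with a B cell marker. With such barcodes kept, the 693 microglia held 189 CPM of Ighm in 294 cells and 56.7 CPM of Igkc in 8 cells, and Cd79b was detected in 77 of them (11.1%). The 62 T and NK cells then held 128 CPM of Ighm and 4.13 CPM of Igkc. Ighm thus stayed above Igkc in both classes, the reverse of the B cells.

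MHC class II genes were also found in a few microglial barcodes, unevenly by library: 5.37% of microglia held an H2-Aa UMI and 5.69% an H2-Eb1 UMI. Over all microglia of a library, H2-Aa was at 441, 54.1 and 192 CPM in the controls and 301, 101 and 507 CPM in the iECKO libraries, all below the 1922.5 to 4051.3 CPM of the B cells. Bank1, Syk and Blnk, known for their part in B cell receptor signalling, were at 60.8, 81.7 and 163.0 CPM in microglia and at 558.0, 331.0 and 139.0 CPM in B cells.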
